A study of Mus musculus with 46 samples.

Results

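Drd1, Drd2, Htr1b, Htr2c, Adra1b, Adra2a and Adrb1 encode receptors for dopamine, serotonin and the adrenergic transmitters noradrenaline and adrenaline. They were followed in the RNA of AgRP and POMC neurons and in the open chromatin of AgRP neurons of the mouse arcuate nucleus (ARC). The members were chosen by symbol. Of the 7 genes, 6 had a row among the 31854 genes of the RNA count table, and Htr1b RNA was not analysed here. Of 123721 ATAC-seq peaks of the 3 feeding states, 70 were centred within 100 kb of a member's start site, as were 32 of 67472 peaks of sorted nuclei. Start sites were the 5′ ends of the genes in GENCODE M21 on GRCm38 (mm10).

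RNA came from male NuTRAP AgRP and NuTRAP Pomc mice. In these crosses, AgRP-IRES-Cre or POMC-IRES-Cre switches on GFP-tagged ribosomes and an mCherry-tagged nuclear envelope, so the cells studied are those in which that Cre is or was active. Mice of 6 to 11 weeks were fed and given vehicle, fasted for 18 to 20 hours and given vehicle, or fasted likewise and given leptin (5 mg/kg, intraperitoneally). The ARC was taken 3 hours after injection, and each sample pooled 4 ARCs. The methods state these conditions for NuTRAP AgRP mice, and the labels give the POMC libraries the same states. Translating ribosome affinity purification (TRAP) RNA-seq gave 3 fed, 4 fasted and 4 leptin libraries of AgRP neurons and 2 libraries per state of POMC neurons. ATAC-seq of AgRP-positive nuclei gave 2 libraries per state. A separate ATAC-seq experiment set 2 libraries of AgRP-positive nuclei against 2 of AgRP-negative nuclei, sorted from the same pools of untreated fed mice.

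Total counts per library were 25581041 to 54511107 for AgRP RNA, 30704075 to 53217053 for POMC RNA, 8263234 to 17190963 for state ATAC-seq and 8685497 to 11177208 for sorted nuclei. RNA markers matched the labels: all 7 AgRP neuron markers were called higher in AgRP than in POMC RNA in each state, and Pomc, Cartpt and Prdm12 were called lower. The POMC marker Nr5a2 was higher in AgRP RNA of the fasted and leptin states. Of 7 sorted peaks within 1 kb of the start of an AgRP neuron marker, 6 were higher in AgRP-positive nuclei and 1 was lower. In such bulk samples, fewer cells of a type and less RNA per cell cannot be told apart. The libraries of both lines also held markers of other cell types, given below. What part of the receptor RNA, and of its levels and their order, came from such cells was not tested.

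Most monoamine receptors are coupled to G proteins. DRD1 and the beta receptor ADRB1 raise cyclic AMP through stimulatory G proteins. DRD2, HTR1B and ADRA2A act through inhibitory G proteins, and HTR2C and ADRA1B through Gq and phospholipase C. AgRP neurons drive feeding and POMC neurons restrain it, leptin acts on both, and serotonin is known to act on POMC neurons through HTR2C.

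The chromatin results turn mostly on a handful of regions, whose central 300 bases (for Drd1, the RefSeq promoter window of 250 bases before to 50 after the start) are printed here from GRCm38.p6. Each was chosen because a value given below rests on it. Capitals mark the motifs found: TTCNNNGAA, the STAT site bound by the leptin-activated factor STAT3; TGANTCA, the AP-1 site of FOS and JUN proteins; and AGAACA, which is 1 arm of the glucocorticoid response element. The IRF motif of interferon regulatory factors (GAAA, any 2 bases, GAAA), TGACGTCA (CRE) and CACGTG (E-box) were searched too, all on both strands. The Drd1 promoter lies at chr13:54055609-54055908 and is printed on the minus strand. The others are printed on the plus strand: an intronic region 17.9 kb downstream of the Drd2 start (chr9:49358364-49358663), 2 intergenic regions upstream of Htr1b (chr9:81689923-81690222 and chr9:81716118-81716417) and an intergenic region 18.7 kb upstream of Adra1b (chr11:43919778-43920077).
Drd1 promoter: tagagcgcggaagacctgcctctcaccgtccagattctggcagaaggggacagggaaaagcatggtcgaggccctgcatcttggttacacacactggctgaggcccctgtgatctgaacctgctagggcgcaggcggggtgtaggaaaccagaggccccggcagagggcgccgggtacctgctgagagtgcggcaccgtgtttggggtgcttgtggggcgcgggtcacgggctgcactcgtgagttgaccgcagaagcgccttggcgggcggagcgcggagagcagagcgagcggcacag
Drd2 +17.9 kb: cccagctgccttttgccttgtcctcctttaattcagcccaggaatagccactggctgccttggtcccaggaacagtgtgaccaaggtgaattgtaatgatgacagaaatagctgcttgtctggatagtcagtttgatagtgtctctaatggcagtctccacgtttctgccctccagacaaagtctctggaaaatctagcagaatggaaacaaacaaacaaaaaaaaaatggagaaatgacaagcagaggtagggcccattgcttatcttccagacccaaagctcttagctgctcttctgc
Htr1b -56.2 kb: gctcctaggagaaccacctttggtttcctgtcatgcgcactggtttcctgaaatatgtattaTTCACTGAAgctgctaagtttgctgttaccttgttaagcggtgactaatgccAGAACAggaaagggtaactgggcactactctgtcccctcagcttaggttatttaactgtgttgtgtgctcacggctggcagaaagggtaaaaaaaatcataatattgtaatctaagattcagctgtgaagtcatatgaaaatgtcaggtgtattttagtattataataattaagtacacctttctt
Htr1b -82.4 kb: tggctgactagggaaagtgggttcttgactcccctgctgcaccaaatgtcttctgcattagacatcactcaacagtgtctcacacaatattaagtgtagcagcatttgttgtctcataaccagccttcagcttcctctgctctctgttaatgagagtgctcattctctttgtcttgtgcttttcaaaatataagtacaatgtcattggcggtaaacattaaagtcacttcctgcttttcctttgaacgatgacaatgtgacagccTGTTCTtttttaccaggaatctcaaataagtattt
Adra1b -18.7 kb: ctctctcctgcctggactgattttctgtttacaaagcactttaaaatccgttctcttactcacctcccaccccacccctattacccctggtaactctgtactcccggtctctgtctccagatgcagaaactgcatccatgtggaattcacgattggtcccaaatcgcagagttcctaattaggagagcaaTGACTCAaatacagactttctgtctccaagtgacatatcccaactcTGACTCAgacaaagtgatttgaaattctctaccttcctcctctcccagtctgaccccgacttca

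The Htr1b -56.2 kb window held a STAT site and an AGAACA match, the Htr1b -82.4 kb window an AGAACA match on the minus strand, and the Adra1b window a pair of AP-1 sites. The printed Drd1 and Drd2 windows held none of the 6 motifs. Of all 123663 windows of the state peaks, 12.4% held the STAT site, 31.2% AP-1, 28.9% AGAACA, 4.15% IRF, 4.73% E-box and 0.685% CRE. Of 32851 RefSeq promoter windows, 8.3% held the STAT site and 7.81% AP-1. The members had 9 promoter windows, of which 0 held the STAT site, 2 held AP-1 and 1 held the E-box. A match is a run of letters and not a measured binding site.

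The first question was how receptor RNA of AgRP neurons changed with fasting and leptin. Drd1, the dopamine receptor that stimulates adenylyl cyclase, fell with fasting and rose above its fed level after leptin. Levels are given in CPM, counts relative to library size after TMM scaling over all 17 RNA libraries. Drd1 was at 13.4, 14 and 10.3 CPM in the fed libraries. It was at 6.95, 6.98, 4.77 and 5.31 in the fasted and 43.5, 34.4, 37.4 and 31.1 in the leptin libraries. The 3 states did not overlap: every fasted library was below every fed library, and every leptin library was above both. Here and below, a lack of overlap describes the named gene or peak. The share of all genes or peaks that separate likewise is not given. The means were 12.6 ± 1.97 (SD, n = 3), 6.00 ± 1.13 (n = 4) and 36.6 ± 5.26 CPM (n = 4).

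Fold changes come from edgeR's quasi-likelihood fit to the 11 AgRP libraries, and a gene was called at a Benjamini-Hochberg FDR under 0.05 over all 13401 genes tested and a log2 fold change beyond 0.5. For Drd1, fasted against fed gave -1.06 on the log2 scale (SE 0.16, FDR = 0.00419), leptin against fasted 2.60 (SE 0.16, FDR = 2.0e-05) and leptin against fed 1.54 (SE 0.17, FDR = 0.000719). It was 1 of 6 members called in each contrast, where 3.89% of all genes were called in fasted against fed, 1.8% in leptin against fasted and 5.4% in leptin against fed. These contrasts share libraries. Library-size scaling moved the share of all calls that were higher in fasted against fed from 72.2% to 62%. With any single library left out, Drd1 stayed called, with an FDR of at most 0.0250 in fasted against fed. Summed AgRP neuron markers were at 2965 to 6455 CPM in fasted, 1665 to 2350 in fed and 2187 to 6428 in leptin libraries, and of the glial, ependymal and vascular markers only Vim was called, higher in leptin than in fed libraries (0.66, FDR = 0.0295). Their part in the Drd1 changes was not tested.

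**Figure D1:**
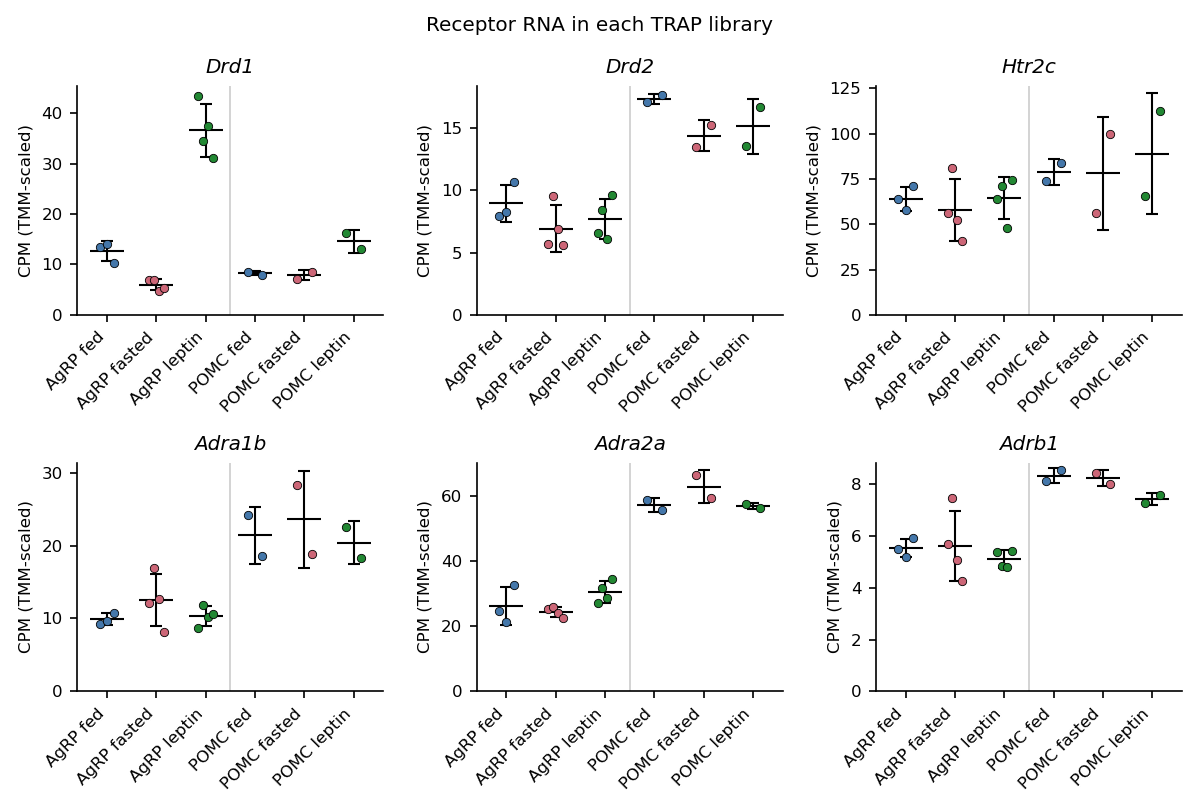
Receptor RNA by library: each point is 1 TRAP library, the y axis is CPM after TMM scaling on a linear scale from 0, and lines give the mean and SD of each group of AgRP (left of the grey line) and POMC libraries. The 4 AgRP leptin libraries of Drd1 sit between 31.1 and 43.5 CPM, above all others, and POMC libraries of Drd2, Adra1b, Adra2a and Adrb1 sit above the AgRP libraries of the same state.

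The other dopamine receptor, Drd2, inhibits adenylyl cyclase and serves as an autoreceptor on dopamine neurons. It was at 8.96 ± 1.51 (SD, n = 3) CPM in fed, 6.93 ± 1.86 (n = 4) in fasted and 7.69 ± 1.63 (n = 4) in leptin AgRP libraries. Its single libraries ran from 5.59 to 10.7 CPM and overlapped between all states. The log2 fold change in fasted against fed was -0.35 (SE 0.23, FDR = 0.457).

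Htr2c, the Gq-coupled serotonin receptor, had the most counts of the members in each state of AgRP RNA. It was at 63.7, 57.8 and 71.0 CPM in fed libraries, at 56.3, 81.2, 52.1 and 40.7 in fasted and at 63.8, 71.2, 48.1 and 74.5 in leptin libraries. The states overlapped, and its log2 fold changes were -0.15 (SE 0.21) in fasted against fed and 0.16 (SE 0.20) in leptin against fasted.

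Among the adrenergic receptors, Adra1b, coupled to Gq, was at 9.91 ± 0.800 (SD, n = 3), 12.5 ± 3.56 (n = 4) and 10.3 ± 1.35 CPM (n = 4) in fed, fasted and leptin libraries. Adra2a, an inhibitory receptor, was at 26.3 ± 5.88, 24.4 ± 1.51 and 30.6 ± 3.30 CPM. Adrb1, the stimulatory beta receptor, was at 5.54 ± 0.361, 5.62 ± 1.36 and 5.12 ± 0.336 CPM. Only for Adra2a in leptin against fasted did the libraries of 2 states not overlap (0.33 on the log2 scale, SE 0.13, FDR = 0.439). How many of all genes separate in this way is not given here. Over the 5 members other than Drd1, log2 fold changes lay between -0.35 and 0.34 in fasted against fed, between -0.27 and 0.33 in leptin against fasted and between -0.21 and 0.23 in leptin against fed, with no FDR under 0.390. An FDR above the threshold does not show that these levels were equal.

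Levels of different genes were compared as CPM per kb of exonic length. In fed AgRP RNA the order was Htr2c (9.29 ± 0.957 CPM per kb, SD, n = 3), Adra2a (6.91 ± 1.55), Drd2 (5.79 ± 0.975), Drd1 (3.52 ± 0.550), Adra1b (2.78 ± 0.224) and Adrb1 (2.23 ± 0.145). The ranges of neighbours overlapped except between Drd2 and Drd1 and between Adra1b and Adrb1. Drd1 was last in the fasted state at 1.68 ± 0.316 CPM per kb (n = 4), where all neighbours overlapped. It was the first in the leptin state at 10.2 ± 1.47 CPM per kb (n = 4), overlapping Htr2c at 9.33 ± 1.71. In POMC RNA, Adra2a stood first in each state, at 15.1 ± 0.567 (n = 2) in fed, 16.6 ± 1.33 in fasted and 15 ± 0.209 CPM per kb in leptin libraries, and Drd1 was last or next to last.

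Across the 11 AgRP libraries, the genes whose log2 CPM followed Drd1 most closely were Socs3 (Pearson r = 0.984), Nedd9 (0.982) and Sbno2 (0.978), of 13401 compared. Socs3 is the feedback inhibitor of leptin receptor signaling. The closest to Drd2 were Nell2 (0.964), Vsnl1 (0.963) and Otof (0.960). For Htr2c they were Nell1 (0.975), the alpha-2 receptor gene Adra2c (0.974) and Kif26a (0.969). For Adra1b they were Rusc2 (0.926), Pip5k1b (0.925) and Th (0.911), which encodes tyrosine hydroxylase and marks dopamine neurons. For Adra2a they were Enc1 (0.872), Mmp2 (0.824) and Taf4b (0.818), and for Adrb1 the serotonin receptor gene Htr7 (0.916), Asb13 (0.891) and Necab3 (0.884). These are descriptions over libraries that share states, depth and preparation.

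The second question was whether POMC neurons responded in the same way. Drd1 in POMC RNA was at 8.51 and 7.93 CPM in fed, 7.12 and 8.56 in fasted and 16.2 and 13.0 in leptin libraries. The leptin libraries were above all others, and fed and fasted libraries overlapped. The log2 fold change of Drd1 was 0.89 (SE 0.19, FDR = 1.00) in leptin against fasted and 0.82 (SE 0.18, FDR = 1.00) in leptin against fed. By edgeR 0 of 6 members were called in each of the 3 contrasts, and 0% of the 13412 genes tested were called in fasted against fed, 0% in leptin against fasted and 0% in leptin against fed. At an unadjusted p under 0.05 Drd1 would pass in both leptin contrasts. In the 3 contrasts 273, 151 and 277 genes in all would pass, 2.04%, 1.13% and 2.07% of those tested. DESeq2 called 0 members in each. With 2 libraries per state, the lack of calls does not show that POMC neurons did not respond.

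The test of the difference between neurons was the interaction in a fit to all 17 RNA libraries. The leptin effect on Drd1, leptin against fasted, was larger in AgRP than in POMC neurons by 1.71 on the log2 scale (SE 0.27, FDR = 0.0430). It was the single call among 6 members, against 0.0744% of 13435 genes. The call was lost with library-size scaling (1.70, FDR = 0.393) and in 15 of 17 fits that left out a library, with FDRs up to 0.315 without POMC leptin replicate 2. It held without AgRP fed replicate 4 (FDR = 0.0388) and without AgRP leptin replicate 4 (FDR = 0.0369). It held with DESeq2 (1.73, FDR = 8.9e-06), with the replicate number as a block within each line (1.71, FDR = 0.000957), without the filter on low counts (FDR = 0.0415) and with the older robust quasi-likelihood fit of edgeR (FDR = 0.0443). The value itself stayed between 1.56 and 1.90. The fasting effect on Drd1 differed by -1.0 (SE 0.27, FDR = 0.180), and edgeR called 0 of 6 members and 0.156% of all genes. With the replicate number as a block within each line, that value was -1.02 (FDR = 0.00802) and Drd1 was called. DESeq2 called 0 members. At an unadjusted p under 0.05 Drd1 alone of the 6 members would pass, where 8.85% of all 13435 genes would.

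The third question was which receptors differ in level between AgRP and POMC neurons. Drd2, Adra1b and Adra2a were lower in AgRP than in POMC RNA in all 3 states, and in the leptin state Drd1 was higher. In fed mice 3 of 6 members were called lower, against 1.49% of 13435 genes. With library-size scaling 1 was, and the share of all fed calls that were higher went from 52.7% to 63.4%. In fasted mice 4 of 6 were lower, against 5.27%. In leptin-treated mice 4 of 6 were lower, against 4.67%, and 1 was higher, against 6.33%. The median log2 fold change of the 6 members was -0.77, -0.73 and -0.72 in the 3 states, and that of all genes lay between -0.04 and -0.01.

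Adra2a showed the steadiest difference. Its POMC libraries were at 58.8 and 55.8 CPM in fed, 66.6 and 59.4 in fasted and 57.6 and 56.5 in leptin mice. Its AgRP libraries were at 24.9, 21.2 and 32.7 CPM in fed, at 25.3, 25.9, 24.0 and 22.5 in fasted and at 27.1, 32.0, 28.9 and 34.6 in leptin mice. No AgRP library came near a POMC library. The log2 fold changes of AgRP against POMC were -1.13 (SE 0.15, FDR = 0.000409), -1.37 (SE 0.14, FDR = 2.7e-05) and -0.90 (SE 0.14, FDR = 0.000733), and they stayed called with any library left out.

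Drd2 was at 17.1 and 17.6 CPM in fed, 13.5 and 15.3 in fasted and 13.6 and 16.7 in leptin POMC libraries, above the highest AgRP library, at 10.7 CPM. Its log2 fold changes were -0.96 (SE 0.23, FDR = 0.0368), -1.05 (SE 0.22, FDR = 0.00562) and -0.98 (SE 0.22, FDR = 0.00910). The fed call was lost with library-size scaling (FDR = 0.0645) and without 1 of 6 single libraries, with an FDR of up to 0.208 without POMC fed replicate 1. The fasted call was lost without POMC fasted replicate 2 (FDR = 0.0522) and the leptin call without POMC leptin replicate 2 (FDR = 0.107). Markers of arcuate dopamine neurons (Th, Ddc, Slc6a3 and Slc18a2, all detected) summed to 90.2 to 152 CPM in AgRP and 196 to 249 CPM in POMC libraries. Slc18a2 was called lower in each state, and Ddc in fasted and leptin mice. That is 1 of 4 in fed and 2 of 4 in fasted and in leptin mice, where 1.49%, 5.27% and 4.67% of all genes were. The list was mixed: 2 of 4 log2 fold changes were positive in fasted and 1 of 4 in leptin mice. The part of these markers in the difference was not tested.

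Adra1b was at 24.2 and 18.6 CPM in fed, 28.3 and 18.8 in fasted and 22.5 and 18.3 in leptin POMC libraries, against 8.16 to 16.9 CPM in AgRP libraries. The groups did not overlap in any state, though each POMC group held only 2 libraries and the share of all genes that separate is not given here. The log2 fold changes were -1.11 (SE 0.25, FDR = 0.0209), -0.91 (SE 0.23, FDR = 0.0149) and -0.98 (SE 0.23, FDR = 0.0119). With library-size scaling none of them was called (FDR = 0.102, 0.0670 and 0.0623). The fed call was also lost without AgRP fed replicate 1 or 3 or POMC fed replicate 1 (FDR up to 0.274), the fasted call without POMC fasted replicate 1 (0.177) and the leptin call without POMC leptin replicate 1 (0.105). The summed dopamine neuron markers, a list that holds Th, were also lower in AgRP than in POMC libraries. Th by itself was not called in any state, and the part of these markers in this difference was not tested.

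Adrb1 was at 8.14 and 8.54 CPM in fed, 8.46 and 8.02 in fasted and 7.27 and 7.59 in leptin POMC libraries, and at 4.27 to 7.47 CPM in AgRP libraries. Its log2 fold changes were -0.59 (SE 0.18, FDR = 0.105), -0.55 (SE 0.17, FDR = 0.0392) and -0.54 (SE 0.17, FDR = 0.0477), so it was called in fasted and leptin mice. The fasted call was lost in 9 of 17 and the leptin call in 14 of 17 fits that left out a library (FDR up to 0.151 and 0.224, without POMC fasted replicate 1 and POMC leptin replicate 2), and both with library-size scaling and without the filter on low counts. Htr2c had log2 fold changes of -0.30, -0.44 and -0.47, with FDRs of 0.792, 0.306 and 0.280, and was not called. Its POMC libraries ran from 56.0 to 112 CPM. Drd1 in fed mice was at 1.53 times its POMC mean, without overlap (0.62 on the log2 scale, SE 0.20, FDR = 0.133), and in leptin mice at 2.51 times its POMC mean, at 1.33 (SE 0.19, FDR = 0.000495). In fasted mice all Drd1 libraries of AgRP neurons were below those of POMC neurons, with -0.38 (SE 0.19, FDR = 0.177).

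Summed astrocyte markers (471 to 971 CPM in AgRP, 681 to 1230 in POMC libraries) and oligodendrocyte markers (441 to 804 and 428 to 971) overlapped between the lines. So did microglial (18.4 to 43.2 and 25.4 to 55.7 CPM), tanycyte and ependymal (68.5 to 151 and 113 to 150 CPM) and endothelial and pericyte markers (85.2 to 157 and 126 to 161 CPM), and 0 genes of these lists were called by edgeR. Slc17a6 and Slc17a7, markers of glutamatergic neurons, summed to 136 to 285 CPM in AgRP and 274 to 345 CPM in POMC libraries. The part of these cells in the differences was not tested. Line and neuron type cannot be told apart.

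**Figure D2:**
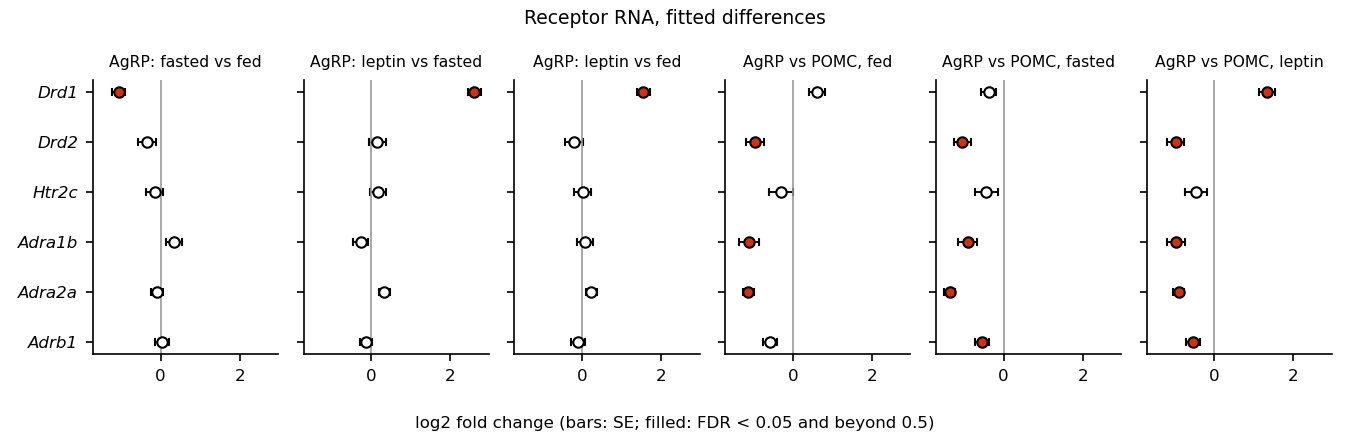
Fitted differences of receptor RNA: each point is the log2 fold change of 1 gene in 1 contrast, with bars for the SE, filled where it was called. Drd1 is filled in the 3 AgRP state contrasts and in AgRP against POMC after leptin, and Drd2, Adra1b and Adra2a are filled and negative in each AgRP against POMC panel.

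Of 21 other monoamine receptor genes in the table, 14 passed the filter in AgRP libraries. In fasted against fed, Htr2a, a Gq-coupled serotonin receptor, rose (log2 fold change 0.82, FDR = 0.00487) and Htr1f, an inhibitory one, fell (-1.30, FDR = 0.0492). In leptin against fasted, Htr2a (-1.09, FDR = 0.000744) and the stimulatory Htr6 (-0.72, FDR = 0.0165) fell, and the inhibitory Htr1a rose (0.77, FDR = 0.0191). Htr2a was at 21.6 ± 2.54 (SD, n = 3) CPM in fed, 37.9 ± 6.44 (n = 4) in fasted and 17.8 ± 1.73 (n = 4) in leptin AgRP libraries. Its order across the states, highest in fasted and lowest after leptin, was the reverse of that of Drd1. The median log2 fold change of the 14 genes was -0.17, 0.02 and -0.16 in the 3 contrasts.

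Between the lines, Htr2a was higher in AgRP RNA of the fasted state (1.29, FDR = 0.000373). Htr4, a stimulatory serotonin receptor, was lower in the fasted (-1.43, FDR = 0.0105) and leptin states (-1.44, FDR = 0.0115), as was Htr3b, a subunit of the serotonin-gated channel (-1.94 and -1.62, FDR = 0.00283 and 0.0112).

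Of 32 genes listed for receptor signaling, 30 were in the table and tested. Rgs4, which speeds the shut-off of Gi and Gq, rose with fasting (0.75, FDR = 0.0415), none was called in leptin against fasted, and Rgs14 was lower in leptin than in fed mice (-0.55, FDR = 0.00739). Against POMC neurons, Gnas, which encodes the stimulatory G protein used by DRD1 and ADRB1, was higher in all states (2.44, 3.07 and 2.42, FDR at most 0.000188), as was Rgs2 (1.95, 1.99 and 2.45, FDR at most 0.000198). Counts are per gene and do not tell the transcripts of Gnas apart. Of the 16 genes for making, moving and degrading monoamines, 10 were tested. Slc18a1, a vesicular monoamine transporter, was higher in fasted (1.10, FDR = 0.0216) and leptin mice (0.84, FDR = 0.0498) than in fed mice. Against POMC neurons 3, 6 and 6 of the 10 were lower in fed, fasted and leptin mice, where 1.49%, 5.27% and 4.67% of all genes were, led by Slc18a2 (-1.71, -1.94 and -1.91) and the organic cation transporter Slc22a3 (-1.39, -1.23 and -1.51), and Slc18a1 was higher in fasted and leptin mice.

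The fourth question was how chromatin near the receptor genes changed with state. The genes lie at chr13:54051183-54055705 (Drd1, minus strand), chr9:49340627-49408177 (Drd2, plus), chr9:81628291-81633828 (Htr1b, minus), chrX:146962513-147197277 (Htr2c, plus), chr11:43774606-43901210 (Adra1b, minus), chr19:54044151-54048982 (Adra2a, plus) and chr19:56722199-56733113 (Adrb1, plus). Of the 70 peaks, 9 lay near Drd1, 8 near Drd2, 14 near Htr1b, 2 near Htr2c, 10 near Adra1b, 12 near Adra2a and 15 near Adrb1. By GENCODE M21, 9 were at promoters (within 1 kb of a coding start), 2 in exons, 22 in introns and 37 were intergenic. For 48 the nearest coding start was a member's own. The windows also held the starts of Sfxn1 (Drd1), Ankk1 and Gm4894 (Drd2), Bbip1 and Shoc2 (Adra2a) and Ccdc186 (Adrb1). The filter of a mean over 1 CPM left 54 peaks tested, and values are TMM-scaled CPM.

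With fasting, 10 of 54 peaks opened and 3 closed, 18.5% and 5.56%, where 19% and 8.36% of all 102237 tested peaks did. In leptin against fasted 1 opened and 2 closed (1.85% and 3.70%), against 1.44% and 0.305%. In leptin against fed 16 opened and 4 closed (29.6% and 7.41%), against 23.7% and 13%. The share of receptor peaks that opened with fasting was near the background. The 10 fasting-opened peaks were all also open in leptin against fed, and 2 of the 3 fasting-closed peaks were also closed. These contrasts share the fed libraries, and the shares of all peaks called in both are not given here. Without fed replicate 1 the opened count in fasted against fed was 4, and without fasted replicate 2 it was 5. Without leptin replicate 1 that in leptin against fed was 8.

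**Figure D3:**
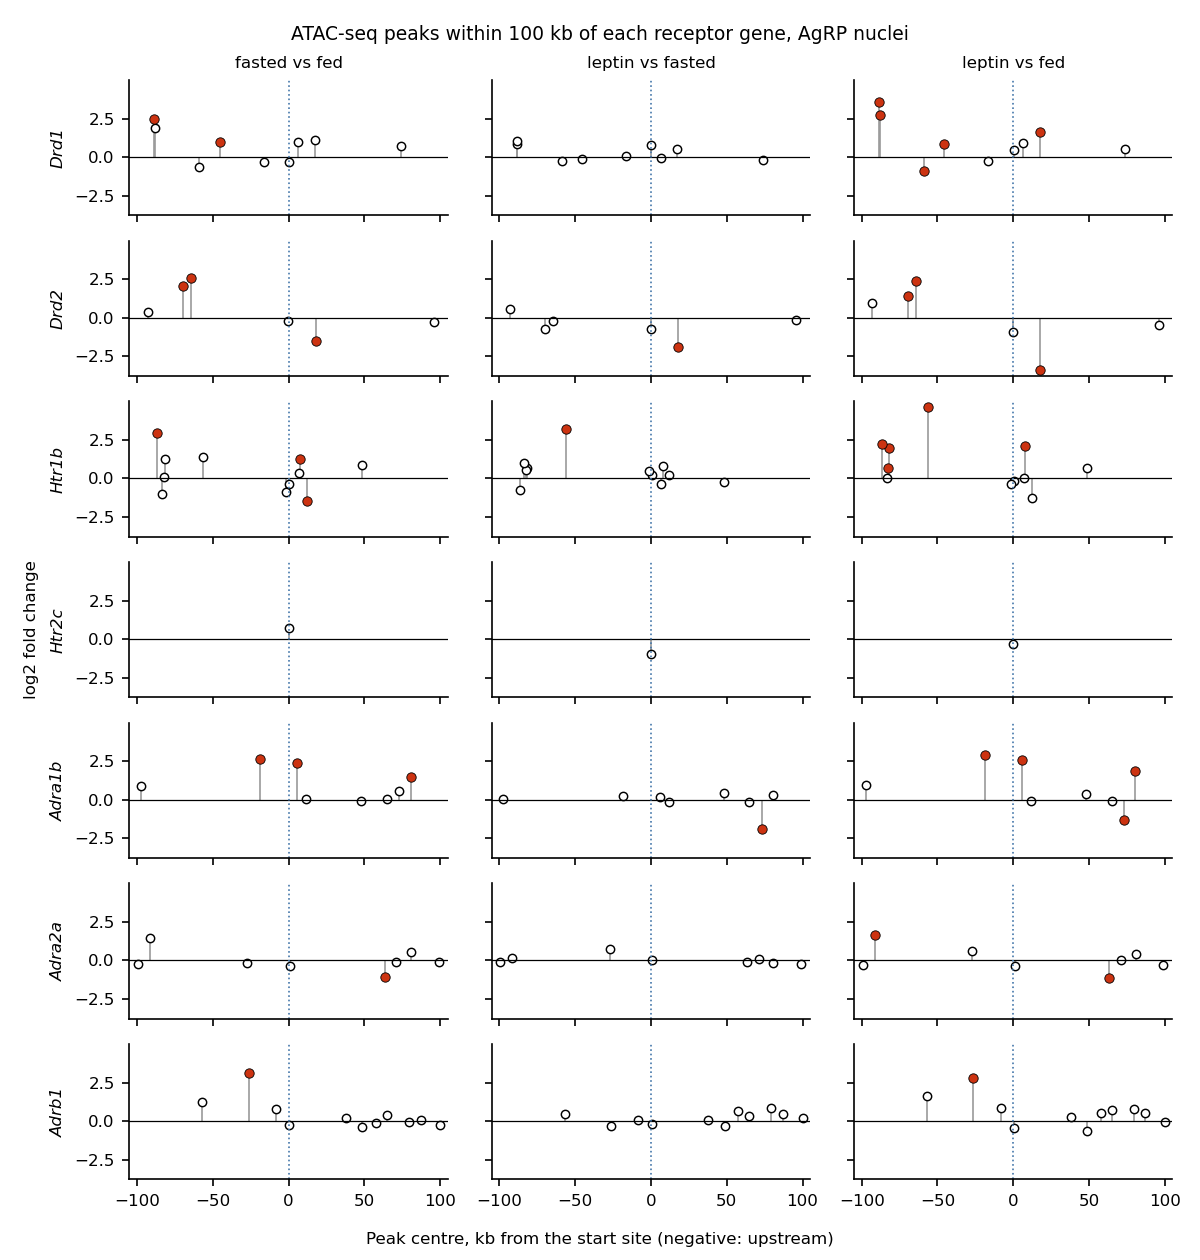
Peaks within 100 kb in AgRP nuclei: the x axis is the distance of the peak centre from the start site in kb, negative upstream, and the y axis is the log2 fold change of each tested peak in the 3 state contrasts. Filled points were called, and the leptin against fasted panels hold 3 of them, at Drd2, Htr1b and Adra1b.

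At Drd1 the promoter peak (chr13:54054966-54056020) was at 17.5 and 18.4 CPM in fed, 14.2 and 14.5 in fasted and 26.3 and 24.1 in leptin libraries. With 2 libraries per state, the 3 states did not overlap and stood in the order of the Drd1 RNA. The share of all peaks that separate in this way is not given here. Its log2 fold change in leptin against fasted was 0.81 (SE 0.22, FDR = 0.0750), which edgeR did not call, with -0.33 (SE 0.23, FDR = 0.289) in fasted against fed and 0.48 (SE 0.22, FDR = 0.0956) in leptin against fed. DESeq2 called the leptin against fasted change (0.82, FDR = 0.0415), and so did the fit with a replicate block (FDR = 0.0392) and those without fed replicate 1 (0.0251) or fed replicate 2 (0.0264). Of the 6 members' promoter peaks tested, edgeR called 0 in any state contrast. The unadjusted p was under 0.05 only at Drd1, in both leptin contrasts. Of all 102237 tested peaks, 11.7% had such a p in leptin against fasted and 47.8% in leptin against fed. The shares among all promoter peaks are not given here.

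Farther out, a peak 88.6 kb upstream of Drd1 (chr13:54144230-54144455), beyond Sfxn1 and nearest to the start of the histamine receptor gene Hrh2, opened from 0.126 and 0.293 CPM in fed to 1.03 and 1.58 in fasted and 2.89 and 2.60 in leptin libraries. Its log2 fold changes were 2.48 (SE 0.69, FDR = 0.0120) and 3.54 (SE 0.65, FDR = 0.000443) against fed, and the former was lost without fed replicate 1 or fasted replicate 2 (FDR = 0.0652 and 0.0761). A peak 58.8 kb upstream closed in leptin against fed (-0.89, SE 0.27, FDR = 0.0151), a call lost without either leptin library (FDR = 0.0966 and 0.104).

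In the Drd2 gene, the intronic peak 17.9 kb downstream of the start (chr9:49358207-49358820) closed in steps. It was at 11.2 and 11.0 CPM in fed, 5.50 and 2.40 in fasted and 1.55 and 0.622 in leptin libraries, with no overlap between states. How many of all peaks separate in this way is not given here. The log2 fold changes were -1.49 (SE 0.40, FDR = 0.0104) in fasted against fed, -1.89 (SE 0.47, FDR = 0.0457) in leptin against fasted and -3.38 (SE 0.46, FDR = 4.1e-05) in leptin against fed. The first was lost without fasted replicate 2 (FDR = 0.143). The second was lost without fasted replicate 1 or either leptin library (FDR = 0.160 to 0.662). Drd2 RNA was not called in any of these contrasts. The Drd2 promoter peak was low, at 2.01 and 3.36 CPM in fed, 2.00 and 2.84 in fasted and 0.915 and 1.98 in leptin libraries, and was not called. Upstream, a peak at -64.5 kb, in an intron of Gm4894, opened with fasting (2.58, SE 0.68, FDR = 0.00897) but not without fed replicate 1 (FDR = 0.0587).

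At Htr1b, the inhibitory serotonin receptor that limits release at axon terminals, the intergenic peak 56.2 kb upstream (chr9:81689805-81690341) was the member peak with the largest rise after leptin. It was at 0.126 and 0.658 CPM in fed, 1.49 and 0.947 in fasted and 12.0 and 10.1 in leptin libraries. Both leptin libraries were far above the other 4. The log2 fold changes were 3.18 (SE 0.41, FDR = 0.00103) in leptin against fasted and 4.6 (SE 0.50, FDR = 8.3e-06) in leptin against fed, and the former was lost without leptin replicate 1 (3.05, FDR = 0.0564). This is the printed window with the STAT site, which 41.2% of the 1469 windows opened by leptin against fasted held. The peak 86.5 kb upstream opened with fasting instead, from 1.01 and 1.10 to 11.1 and 5.49 CPM (2.96, SE 0.48, FDR = 0.000248), and was at 6.69 and 3.40 in leptin libraries. Close to the gene, a peak 12.2 kb downstream of the start closed with fasting, from 3.78 and 2.34 to 0.905 and 1.26 CPM (-1.46, SE 0.51, FDR = 0.0387). DESeq2 did not call it (FDR = 0.0791), and it was lost without fed replicate 1, either fasted library or leptin replicate 2 (FDR = 0.0533 to 0.202). The Htr1b promoter peak was at 41.3 and 25.6 CPM in fed, 24.9 and 27.5 in fasted and 31.1 and 29.2 in leptin libraries, which overlap. It was not called, though without fed replicate 2 it was called lower in fasted than in fed libraries (-0.67, FDR = 0.0190).

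Htr2c had 1 tested peak, at its promoter (chrX:146962405-146962668), with 0.881 and 0.951 CPM in fed, 1.62 and 1.39 in fasted and 0.704 and 0.792 in leptin libraries. The fasted libraries were the higher ones, and no difference was called (0.70, SE 0.57, FDR = 0.368 in fasted against fed and -0.99, SE 0.55, FDR = 0.535 in leptin against fasted).

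At Adra1b the intergenic peak 18.7 kb upstream (chr11:43919573-43920283) went from 3.15 and 7.17 CPM in fed to 34.1 and 33.3 in fasted and 38.4 and 41.0 in leptin libraries. Fasted and leptin libraries were all far above the fed ones. The log2 fold change was 2.65 (SE 0.27, FDR = 1.2e-05) in fasted against fed and 2.88 (SE 0.28, FDR = 3.6e-06) in leptin against fed, and both held with any library left out. Its printed window held a pair of AP-1 sites. Adra1b had no peak at its own promoter, and the nearest, intronic at 5.7 kb, opened with fasting from 0.252 and 0.293 to 1.68 and 1.26 CPM (2.38, SE 0.70, FDR = 0.0168). That call was lost without either fed library or fasted replicate 1 (FDR = 0.0654 to 0.0784). An intronic peak 73.0 kb downstream (chr11:43827830-43828574) was at 12.0 and 6.00 CPM in fed, 16.4 and 9.53 in fasted and 4.30 and 2.83 in leptin libraries. The leptin libraries were the lowest, and the peak closed in leptin against fasted (-1.87, SE 0.38, FDR = 0.0156). That call was lost without fasted replicate 1 or either leptin library (FDR = 0.163 to 0.388). Adra1b RNA was not called in these contrasts.

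At Adra2a a peak 63.3 kb downstream (chr19:54107133-54107736) closed with fasting, from 9.69 and 6.58 CPM to 4.14 and 3.41 (-1.09, SE 0.34, FDR = 0.0230), and was at 3.59 and 3.57 in leptin libraries. The call was lost without fed replicate 1 or either fasted library (FDR = 0.0652 to 0.154). The Adra2a promoter peak was at 17.4 and 17.3 CPM in fed, 12.8 and 13.6 in fasted and 12.8 and 14.4 in leptin libraries. Both fed libraries were the highest, and the difference was not called (-0.39, SE 0.25, FDR = 0.253 in fasted against fed). At Adrb1 the peak 26.3 kb upstream (chr19:56695790-56696075) opened with fasting, from 0.252 and 0.219 to 2.13 and 2.08 CPM (3.14, SE 0.65, FDR = 0.00172), and stayed at 1.76 and 1.58 in leptin libraries (2.80, SE 0.66, FDR = 0.00299 against fed). It was the single called peak near Adrb1 in the state contrasts. The Adrb1 promoter peak was at 25.6 and 31.1 CPM in fed, 23.7 and 24.1 in fasted and 23.2 and 19.1 in leptin libraries and was not called.

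**Figure D4:**
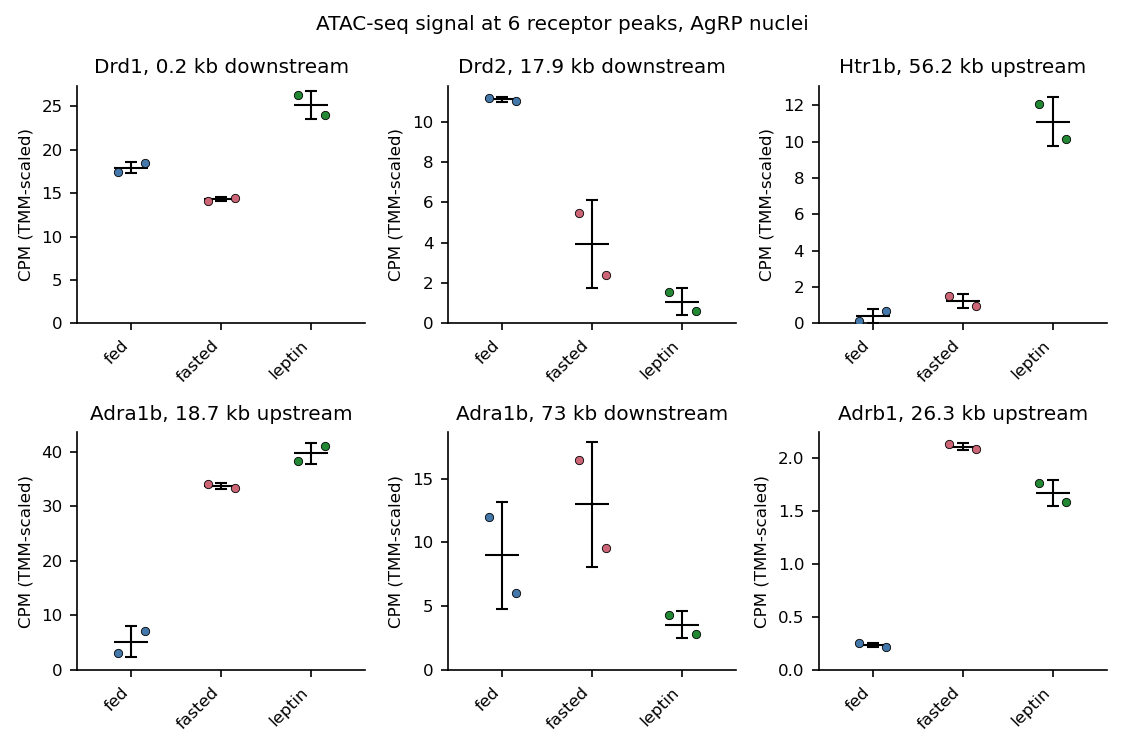
ATAC-seq signal by library: each point is 1 library of AgRP-positive nuclei at 1 peak, with the mean and SD of 2 libraries per state in CPM on a linear axis from 0. The Htr1b peak 56.2 kb upstream is high only in the leptin libraries (12.0 and 10.1 CPM), whereas the Adra1b peak 18.7 kb upstream is high in both fasted and leptin libraries.

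Of the 10 member peaks opened by fasting, 9 held an AP-1 site in their central 300 bases, where 71.6% of all 19397 opened and 25% of all uncalled windows did. Of the 3 closed peaks, 0 did, against 5.34% of all closed windows. In leptin against fed the count was 11 of 16 opened, against 70.2%, and 0 of 4 closed, against 5.59%. In sorted nuclei it was 4 of 10 higher peaks, against 37.6%, and 1 of 9 lower peaks, against 6.75%.

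The last question was whether chromatin at the receptor genes differs between AgRP-positive and AgRP-negative nuclei of fed mice. Of the 32 peaks, all tested, 10 were higher in AgRP-positive nuclei and 9 lower, 31.2% and 28.1%, where 24.1% and 15.3% of all 66560 peaks were. With library-size scaling the counts were 10 and 5, since that scaling raised the median log2 fold change of all peaks by 0.16 and the share of calls that were higher from 61.2% to 71.9%. Of the 7 peaks at a member's promoter, 6 were lower in AgRP-positive nuclei and 1, at Drd1, was higher; Htr2c had 2 of them and each other member 1, save Adra1b with 0. Of all 12344 tested peaks within 1 kb of a coding start, 12.6% were lower and 2.45% higher. Of the 22 peaks at no promoter, 9 were higher, 3 were lower and 10 were not called, where 29% and 15.9% of all 54216 such peaks were higher and lower.

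The Drd1 promoter peak was at 12.7 and 13.8 CPM in AgRP-positive and 8.01 and 9.0 in AgRP-negative libraries, without overlap (log2 fold change 0.64, SE 0.25, FDR = 0.0290). DESeq2 did not call it (FDR = 0.130), nor did any fit with a library left out (FDR = 0.0588 to 0.155). The Adra2a promoter peak was at 18 and 18 against 31.5 and 36.1 CPM (-0.91, SE 0.16, FDR = 3.7e-07). The Drd2 promoter peak was at 3.82 and 4.33 against 9.24 and 7.82 CPM (-1.06, SE 0.32, FDR = 0.00354), a call lost without AgRP-negative replicate 1 (FDR = 0.0651). Lower values in AgRP-positive nuclei were also called at the promoters of Htr2c (-1.58, SE 0.41), Htr1b (-0.58, SE 0.16) and Adrb1 (-0.51, SE 0.14). Without AgRP-negative replicate 1 these 3 calls were lost, as was Htr1b without AgRP-positive replicate 2 and Adrb1 without AgRP-positive replicate 1, and with library-size scaling so were those at Htr1b (-0.42) and Adrb1 (-0.35), whose log2 fold changes fell short of 0.5.

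The Htr1b peak 82.4 kb upstream (chr9:81716047-81716488) was at 21.2 and 16.6 CPM in AgRP-positive and 1.72 and 1.66 in AgRP-negative libraries, the largest difference among the 32 (3.47, SE 0.31, FDR = 3.4e-26). In the state libraries that region was at 19.1 and 16.7 CPM in fed, 17.7 and 20.8 in fasted and 25.8 and 31.0 in leptin libraries, and was called higher in leptin than in fed (0.67, SE 0.22, FDR = 0.0235). The Drd2 intronic peak at 17.8 kb, which overlaps the one that closed with fasting and leptin, was at 4.09 and 6.08 against 1.11 and 1.07 CPM (2.22, SE 0.48, FDR = 3.7e-05). The Adra1b peak 18.7 kb upstream was at 8.89 and 6.08 against 1.97 and 1.66 CPM and was also called higher. The others with the largest gains were at 72.8 kb of Adra1b (2.16, SE 0.52), 80.6 kb of Adra2a (2.31, SE 0.40) and 87.0 kb of Adrb1 (1.97, SE 0.40), the last in an exon of Ccdc186. The Adra1b one was lost without AgRP-positive replicate 2 (FDR = 0.0664). At Adra1b another intronic peak, at 11.4 kb, was lower (-1.08, SE 0.40, FDR = 0.0192), but not by DESeq2 (FDR = 0.105), with library-size scaling (FDR = 0.0524) or without AgRP-negative replicate 2 (FDR = 0.607) or AgRP-positive replicate 2 (FDR = 0.163). Near Drd1, neighbouring peaks went opposite ways: that at -59.1 kb was higher (0.93, SE 0.36, FDR = 0.0288) and that at -58.4 kb lower (-1.21, SE 0.40, FDR = 0.00775). DESeq2 did not call the former (FDR = 0.153), and it was lost without either AgRP-negative library or AgRP-positive replicate 2 (FDR up to 0.444). The latter was lost without AgRP-negative replicate 1 (FDR = 0.0721) or AgRP-positive replicate 1 (FDR = 0.0919). A peak 84.6 kb upstream of Adrb1 was the lowest, at 0.978 and 0.500 against 6.28 and 4.15 CPM (-2.81, SE 0.52, FDR = 9.6e-07).

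**Figure D5:**
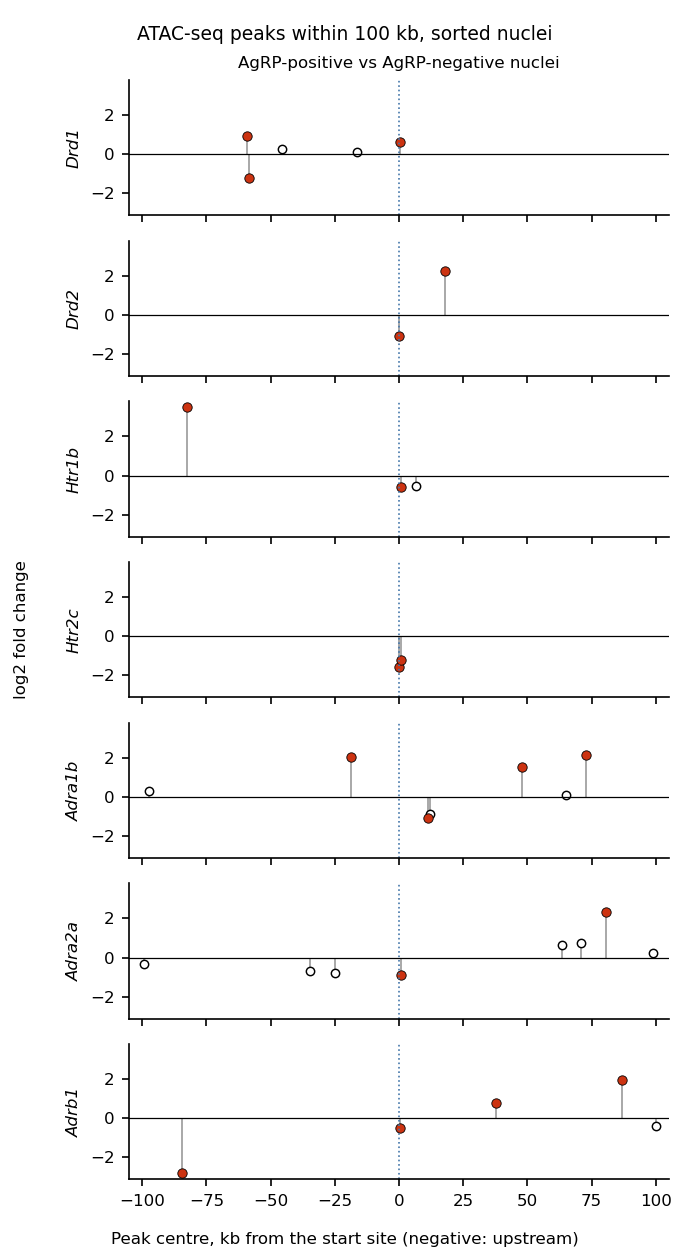
Peaks within 100 kb in sorted nuclei: the x axis is the distance of the peak centre from the start site in kb and the y axis the log2 fold change of AgRP-positive against AgRP-negative nuclei, filled where called. Points at the start sites lie below 0 except at Drd1, and Adra1b has no peak there.

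In both experiments AgRP-positive nuclei of fed mice were measured, and 30 of the 32 sorted peaks overlapped a state peak by at least 1 base. Of the 10 peaks opened by fasting, 2 overlapped a sorted peak, and 1 of them was higher in AgRP-positive nuclei. All 4 peaks closed in leptin against fed overlapped a sorted peak, and 3 of them overlapped one that was higher in AgRP-positive nuclei. One of these 3, the Drd1 peak at -58.8 kb, overlapped both the higher sorted peak at -59.1 kb and the lower one at -58.4 kb. The sorted nuclei came from fed mice alone, so a peak that is low in fed nuclei may be missing from that list. The shares of all opened and closed peaks that overlap a sorted peak are not given here. These counts therefore describe the named peaks and show nothing particular to the receptor genes.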

How the data were processed

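Members and gene lists were chosen with earlier results of these data known. Named genes and peaks are the members, at most 4 called genes per list and contrast, the 3 genes most like each member, the peak nearest each start site and the called peak with the largest change each way. The Htr1b region at -82.4 kb and the Adra1b region at -18.7 kb were followed into the other ATAC-seq experiment after their values were seen. The lists held other monoamine receptors, receptor signaling, monoamine supply, and markers of AgRP, POMC, arcuate dopamine and glutamatergic neurons, astrocytes, oligodendrocytes, microglia, tanycytes and ependyma, and endothelium and pericytes.

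For RNA, the authors mapped reads by HISAT2 and assigned them to genes of GRCm38 by featureCounts. ATAC-seq reads went through Bowtie2 (mm10), MACS2 for peaks and bedtools for coverage of peaks. The deposited values used are those raw counts. The RNA libraries did not keep strand, so reads of overlapping or antisense genes cannot be told apart (the authors' annotation was modified to reduce overlaps). Replicates are separate samples of pooled ARCs, and p-values measure the spread between those samples.

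Tests were run with edgeR 4.0.16 in R 4.3.3 (glmQLFit, glmQLFTest). Features with a mean over 1 CPM were scaled by TMM. The FDR is the Benjamini-Hochberg value over every feature tested. SEs are those implied by the F statistic. One model held the 11 AgRP RNA libraries, one the 6 POMC libraries, one all 17, one the 6 state ATAC-seq libraries and one the 4 sorted libraries. RNA CPM were scaled over all 17 libraries, so ratios of printed means can differ slightly from fitted fold changes. The fits were tested on simulated data. Peak distances run from the peak centre to the gene's 5′ end.

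Same-numbered libraries deviated together from their state means in AgRP RNA (r = 0.536 to 0.814 over 10 pairs, median 0.700, against -0.642 to 0.642 for other pairs) and in POMC RNA (0.733 to 0.770). The numbers therefore pair the AgRP samples. With 2 POMC libraries per state, deviations from the mean mirror each other, so other pairs had the same values with a negative sign (-0.770 to -0.733). Only the sign of r is informative there, and the pairing of POMC samples is less sure. The numbers do not pair libraries between the lines (-0.526 to 0.358) or the state ATAC-seq libraries (-0.00228 to 0.165). The 2 sorted populations of a number came from 1 pool by the study's methods (r = 0.0988). The replicate block within the line for the interactions rests on the pairing within each line, which is less sure for POMC samples. Alternatives were DESeq2 1.42.0, library-size scaling, no filter, older robust quasi-likelihood (RNA), a replicate block, each library left out and windows of 50 and 200 kb. Of 46 samples listed, those outside these 27 libraries were not used here. Some results of the other receptor list are not reported here.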

Additional observations from a re-analysis of the deposited data

Results flagged for a closer look

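The leptin effect on Drd1 differed between the neurons by 1.71 on the log2 scale (AgRP minus POMC, interaction in the edgeR fit to 17 libraries, FDR = 0.0430). In AgRP neurons all 4 leptin libraries (31.1 to 43.5 CPM) were above all 4 fasted ones (4.77 to 6.98 CPM), and in POMC neurons both leptin libraries (16.2 and 13.0 CPM) were above both fasted ones (7.12 and 8.56 CPM). The call was lost in 15 of 17 fits that left out a library and with library-size scaling (FDR = 0.393). It held with DESeq2 (1.73, FDR = 8.9e-06), the replicate block within each line (1.71, FDR = 0.000957), no filter on low counts (FDR = 0.0415) and the older robust quasi-likelihood fit (FDR = 0.0443). The cause of the difference was not tested.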

How the results depend on the processing

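Values of single genes and peaks kept their direction and call in 420 settings other than leaving out a library, lost the call in 22, gained it in 4 and reversed in 5. With a library left out these counts were 732, 102, 5 and 16. With library-size scaling, called members fell to 1 in fed, 2 in fasted and 3 in leptin mice in AgRP against POMC RNA (3, 4 and 5 in the report) and to 0 in the leptin interaction. Libraries of the fasted state alone gave 2. The replicate block gave 1 call in the fasting interaction; it changed no other call in the AgRP and POMC state fits or the sorted nuclei. In state ATAC-seq, where numbers do not pair samples, it gave 2 opened peaks in leptin against fasted, as did DESeq2 (1 in the report). In AgRP against POMC RNA, also unpaired, it called Drd1 in fed mice (0.77) and lost Adrb1 in fasted (-0.46) and leptin mice (-0.44).

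With windows of 50 and 200 kb, 5 and 23 peaks opened in fasted against fed, 0 and 2 in leptin against fasted, and 6 and 35 in leptin against fed. With 200 kb, 10 closed in fasted against fed and 15 in leptin against fed, and with 50 kb 1 closed in each leptin contrast. Higher in AgRP-positive nuclei were 5 and 21, and library-size scaling left 5 lower peaks. The numbers of peaks tested in the 50 and 200 kb windows are not given here. The counts of those windows therefore cannot be set against the shares of all peaks. Leaving out 1 library gave 1 to 4, 2 to 4 and 3 to 5 called members in AgRP against POMC RNA of fed, fasted and leptin mice, and 0 to 1 in the leptin interaction. It gave 4 to 10 opened and 1 to 5 closed peaks in fasted against fed, 0 to 2 and 0 to 2 in leptin against fasted, 8 to 15 and 1 to 5 in leptin against fed, and 6 to 8 higher and 4 to 7 lower peaks in sorted nuclei.

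With library-size scaling and the replicate block, Adrb1 in fasted against fed went to -0.0024 and -0.036 and Htr2c in leptin against fed to -0.034 and -0.11, and with the block Adra1b in leptin against fed to -0.044. With a library left out, the ranges that crossed 0 were -0.22 to 0.078 for Adra2a and -0.14 to 0.12 for Adrb1 (AgRP RNA, fasted against fed), -0.25 to 0.033 for Adrb1 in leptin against fasted, -0.074 to 0.14 for Htr2c in leptin against fed, -0.79 to 0.024 for Htr2c in fasted AgRP against POMC RNA, and -0.20 to 0.052 for Drd1 in POMC RNA, fasted against fed. For peaks they were -0.49 to 0.25 (Drd2, -0.1 kb) and -0.67 to 0.011 (Htr1b, 0.6 kb) in fasted against fed, -0.0088 to 0.57 (Adra1b, 5.7 kb) and -0.036 to 0.14 (Adra2a, 0.9 kb) in leptin against fasted, and -0.47 to 0.21 (Htr1b, 0.6 kb) in leptin against fed. The causes were not tested. A fit without 1 of 2 libraries assumes that the lone library varies like the other groups. Groups of 2 libraries limit the POMC and ATAC-seq contrasts, and members had 123 to 4470 counts per RNA library.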

Other observations

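Among genes that handle monoamines, the vesicular transporter Slc18a2 averaged 34.4 to 36.0 CPM in the 3 states of AgRP RNA and 118 to 138 CPM in POMC RNA. The decarboxylase gene Ddc and the monoamine oxidase genes Maoa and Maob, whose products make and break down monoamines, were called lower in AgRP RNA of fasted (-0.68, -0.79 and -0.69) and leptin mice (-0.95, -0.75 and -0.67). Of the receptor signaling list, the potassium channel gene Kcnj3 (-0.87 and -0.88), the phospholipase gene Plcb1 (-0.65 and -0.71) and the G protein gene Gnai1 (-0.63 and -0.71) were lower in the same 2 states, as was Rgs16 in fasted mice (-0.93). Rgs4 was higher in fasted (1.61) and Rgs9 in leptin mice (0.54).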
